A study of Homo sapiens with 2 samples.

Results

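A-to-G mismatches were measured in the transcripts of 5 tubulin genes (TUBA1B, TUBA1A, TUBA1C, TUBB and TUBB4B) and of vimentin (VIM), chosen by gene name and hg19 region. All listed A positions on the coding strand of each region were taken: 2389 of 3510746 nuclear positions in the ABA library and 2423 of 4070751 in the library without ABA, where nuclear means chromosomes 1 to 22 and X. The cells were HEK-293T, a human embryonic kidney line, and carried a CIRTS-hADAR biosensor in both conditions. CIRTS is an engineered system that brings an effector to a chosen RNA, hADAR is a human adenosine deaminase acting on RNA, and ABA is abscisic acid, a plant hormone used to join protein parts on demand. The labels give neither the dose and time of ABA nor the RNA the biosensor was aimed at, and they name no cells without it. The comparison asked how A-to-G reads differed with and without ABA. Each condition had 1 library, so no difference between conditions has a replicate check. Intervals, at 95%, take each base read as separate and cover counting error alone.

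Alpha- and beta-tubulin pair into the building block of microtubules, the hollow filaments of the spindle and of intracellular transport. TUBA1A, TUBA1B and TUBA1C encode near-identical alpha-tubulins, and TUBB and TUBB4B encode beta-tubulins. Vimentin forms intermediate filaments and is common in cultured cells. ADAR enzymes convert adenosine in double-stranded RNA to inosine, which sequencing reads as G. In human RNA most such sites lie in inverted repeat elements.

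Over the 6 genes together, 0.181% of A and G reads were G in the ABA library (187 of 103113 reads, interval 0.156% to 0.209%), against 0.0871% in the library without ABA (82 of 94126 reads, 0.0693% to 0.108%). The ratio was 2.08 (1.60 to 2.73), with the intervals apart. A higher rate with ABA was general, since the other nuclear positions had a ratio of 2.01 (1.97 to 2.04). Of 646 nuclear blocks, runs of positions at most 100 nt apart, with at least 5000 reads in each library, 74.1% were higher before any test. Beside that, all 6 genes had the higher rate with ABA. In 3 of them, TUBA1C, TUBB and TUBB4B, the interval of the ratio lay above 1. A-to-C and A-to-T reads at the same positions, summed as a background, stood at 0.0291% (30 reads) with ABA and 0.0372% (35 reads) without ABA, a ratio of 0.783 (0.465 to 1.31). That background was higher with ABA in 3 genes and lower in 3. No position of the 6 genes had an edited share, G over A plus G reads, of 35% or more, the level at which positions were set aside as variant-like.

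**Figure D1:**
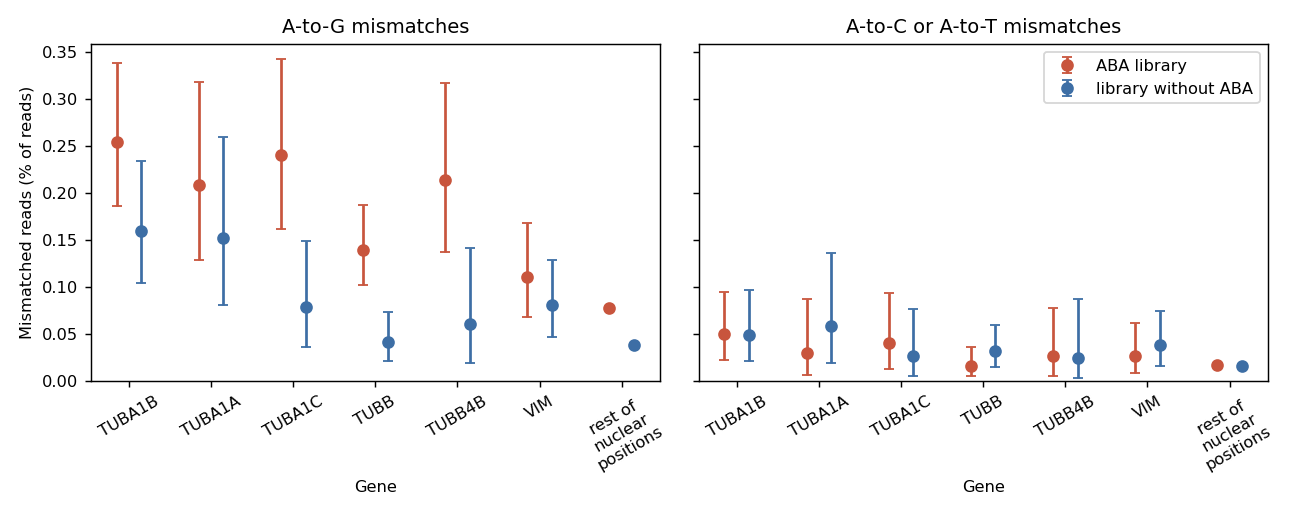
A-to-G mismatches (left) and A-to-C or A-to-T mismatches (right) as a percentage of reads, for each gene and for the other nuclear positions. Red points are the ABA library and blue points the library without ABA, each from 1 library, with exact 95% counting intervals. The A-to-G intervals of TUBA1C and TUBB are apart and those of TUBB4B overlap slightly, whereas the right-hand rates overlap in all 6 genes.

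The alpha-tubulin genes lie together on chromosome 12. TUBA1B, from 49521566 to 49525304 on the minus strand (NCBI gene 10376), had 46 G reads of 18096 with ABA, a rate of 0.254% (0.186% to 0.339%). Without ABA it had 26 of 16254, or 0.160% (0.105% to 0.234%). Its ratio was 1.59 (0.962 to 2.68), and the intervals of the rates overlapped. Without its position of most G reads, described below, the ratio was 1.84 (1.04 to 3.38), so that the interval then lay above 1.

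TUBA1A, from 49578583 to 49582861 on the minus strand (NCBI gene 7846), is the alpha-tubulin best known from developing neurons. It had 21 G reads of 10083 with ABA, 0.208% (0.129% to 0.318%), against 13 of 8536 without ABA, 0.152% (0.0811% to 0.260%). The rates overlapped, with a ratio of 1.37 (0.653 to 2.97). Restricted to A positions with no listed A beside them, the ratio of TUBA1A turned to 0.834 (0.273 to 2.55), so its direction depended on that choice.

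TUBA1C, from 49621709 to 49667089 on the plus strand (NCBI gene 84790), had the widest gap of the alpha-tubulins. With ABA, 30 of 12489 reads were G, 0.240% (0.162% to 0.343%). Without ABA the figure was 9 of 11444, 0.0786% (0.0360% to 0.149%). The intervals did not overlap, and the ratio was 3.05 (1.41 to 7.31). Its A-to-C or A-to-T reads numbered 5 with ABA and 3 without ABA.

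Of the beta-tubulins, TUBB lies on chromosome 6 from 30688157 to 30693199, plus strand (NCBI gene 203068), and was the most deeply read of the 6 genes. Its G reads numbered 45 of 32157 with ABA, 0.140% (0.102% to 0.187%), and 12 of 28585 without ABA, 0.0420% (0.0217% to 0.0733%). The ratio was 3.33 (1.73 to 6.92), with the intervals of the rates apart. TUBB had 5 A-to-C or A-to-T reads in the ABA library and 9 in the library without ABA, rates of 0.0156% and 0.0315% whose intervals overlapped.

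TUBB4B lies on chromosome 9 from 140135711 to 140138159, plus strand (NCBI gene 10383). The ABA library held 24 G reads of 11230, 0.214% (0.137% to 0.318%), and the library without ABA held 5 of 8261, 0.0605% (0.0197% to 0.141%). The ratio was 3.53 (1.32 to 11.8), a wide interval that rests on the 5 reads. Restricted to A positions with no listed A beside them, the ratio was 3.13 (0.861 to 17.1), an interval that held 1. Both beta-tubulins together had 0.159% with ABA and 0.0461% without ABA, a ratio of 3.45 (2.01 to 6.25). The 3 alpha-tubulins together had 0.239% and 0.132%, a ratio of 1.80 (1.26 to 2.60).

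Vimentin lies on chromosome 10 from 17270258 to 17279592, plus strand (NCBI gene 7431). It had 21 G reads of 19058 with ABA, 0.110% (0.0682% to 0.168%), and 17 of 21046 without ABA, 0.0808% (0.0471% to 0.129%). The intervals overlapped, and the ratio was 1.36 (0.685 to 2.75), which does not show that the rate of vimentin was the same in both. Of its 9 listed segments, runs of listed positions at most 60 nt apart, 3 had 0 G reads with ABA and 4 had 0 without ABA. The highest segment rate with ABA was in the third, from 17275587 to 17275680, with 5 of 1234 reads (0.405%, 0.132% to 0.943%). Without ABA it had 0 of 1227, with an exact interval up to 0.300%, or up to 0.244% when a count of 0 is taken as 3 reads. The 9th segment, at the 3' end, had 3 of 4146 reads with ABA and 5 of 5484 without ABA.

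Each ratio was then set against that of the other nuclear positions, where the rate was 0.0774% with ABA and 0.0385% without ABA, a ratio of 2.01 (1.97 to 2.04). For the 6 genes together the ratio of ratios was 1.04 (0.799 to 1.34), so that their relative difference was not told apart from the general one. The members' own values ran from 0.679 (0.358 to 1.29) for VIM to 1.76 (0.671 to 4.61) for TUBB4B, and each of the 6 intervals held 1. With variant-like positions kept among the others, TUBB stood at 1.96 (1.04 to 3.71), above 1. The beta-tubulins together stood at 1.72 (1.01 to 2.92), with a lower bound close to 1. That bound fell to 0.992 when the other positions were taken at the same depths.

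The alpha-tubulin ratio over the beta-tubulin ratio was 0.522 (0.277 to 0.984). Without the position of most G reads in each gene it was 0.562 (0.288 to 1.09), an interval that held 1, so that 1 position in each gene decided whether the contrast stood apart. The contrast also pools unlike alpha-tubulins. TUBA1C had a ratio of 3.05, near the 3.33 of TUBB and 3.53 of TUBB4B, while TUBA1B had 1.59 and TUBA1A 1.37. Vimentin over the tubulins was 0.614 (0.305 to 1.24). In all, 23 such ratios of ratios were formed, 10 against the other positions and 13 between genes or classes, and their intervals are not adjusted for that number.

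Read depth matters for these rates, because the A-to-G rate rose with depth over the other nuclear positions. It did not rise in order over the 6 genes. At positions with a mean depth of 20 to under 30 reads, the 6 genes had 0.219% with ABA and 0.109% without ABA, against 0.0791% and 0.0430% for the other positions. From 50 to under 100 reads the 6 genes had 0.181% and 0.0932%, against 0.196% and 0.107% for the other positions. The 6 genes thus lay above the other positions in the shallower of these classes and not in the deeper one. In the class from 30 to under 50 reads they had 0.157% with ABA and 0.0679% without ABA, against 0.112% and 0.0607%. From 6 to under 20 reads they had 0.214% and 0.119%, against 0.0576% and 0.0290%. At 100 reads and over, on 15 positions, they had 0.383% (0.141% to 0.833%) with ABA, against 0.310%. Without ABA they had 0.125% (0.0152% to 0.452%) there, against 0.162%.

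The same comparison was made by gene, applying the rates of the other positions at each depth to the reads of the gene. TUBA1A had 2.05 times (1.27 to 3.13) the G reads so expected with ABA and 3.08 times (1.64 to 5.28) without ABA. TUBA1B had 1.45 times (1.06 to 1.94) with ABA and 1.68 times (1.1 to 2.46) without ABA. Both values of TUBA1B fell to 1.23 times without its position of most G reads, with intervals of 0.877 to 1.69 with ABA and 0.742 to 1.92 without ABA that held 1. TUBA1A without its own such position had 1.66 times (0.966 to 2.66) with ABA and 2.37 times (1.14 to 4.37) without ABA, so that only the library without ABA then lay above 1. TUBA1C lay above them with ABA, at 1.76 times (1.19 to 2.51), and was at 1.05 times (0.478 to 1.98) without ABA. TUBB lay below them without ABA, at 0.462 times (0.239 to 0.808), and had 0.764 times (0.557 to 1.02) with ABA. TUBB4B had 1.70 times (1.09 to 2.52) with ABA, or 1.56 times (0.975 to 2.36) without its position of most G reads, and 1.14 times (0.369 to 2.65) without ABA. VIM had 0.826 times (0.511 to 1.26) with ABA and 1.0 times (0.583 to 1.60) without ABA, wide intervals that both held 1. A-to-C or A-to-T reads, not matched for depth, were also more frequent in the 3 alpha-tubulins together than at the other positions. They stood at 0.0419% against 0.0171% with ABA and 0.0442% against 0.0154% without ABA. The beta-tubulins had 0.0185% and 0.0299%, and VIM 0.0263% and 0.0380%. Whether the alpha-tubulin level was particular to A-to-G was not tested.

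**Figure D2:**
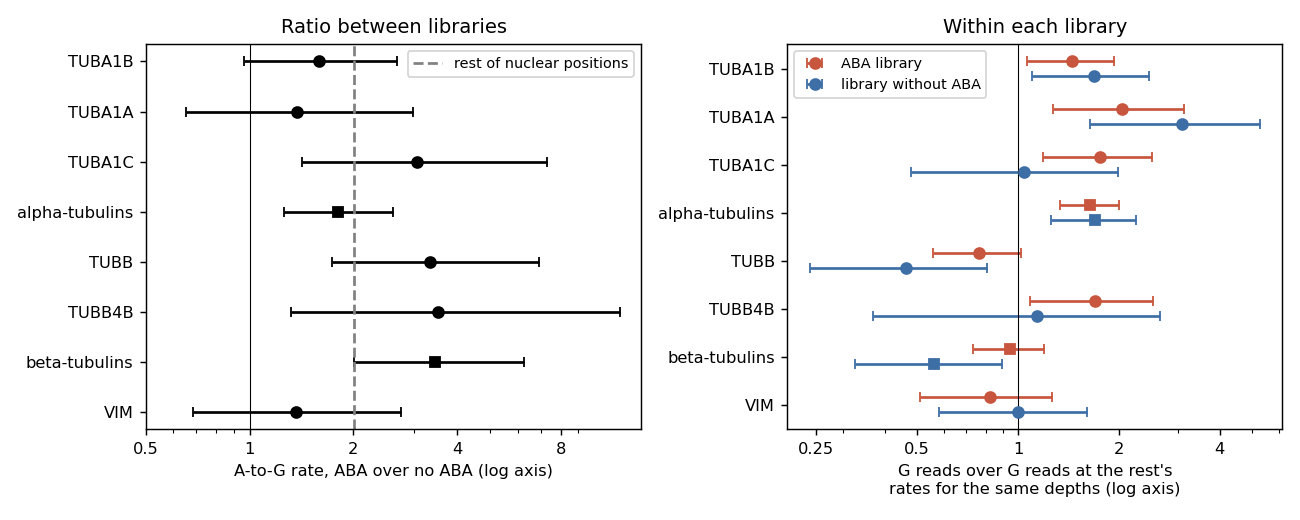
Left, the A-to-G rate with ABA over that without ABA for each gene (circles) and class (squares), with exact 95% intervals and the ratio of the other nuclear positions, 2.01, as a dashed line. Right, the G reads of each library divided by the G reads that the other nuclear positions' rates at the same depths would give, with exact 95% Poisson intervals of the counted reads. On the left the beta-tubulins together have a higher ratio than the alpha-tubulins together, with TUBA1C near the beta-tubulins. On the right TUBB lies below 1 without ABA, while TUBA1A and TUBA1B lie above 1 in both libraries with all positions kept.

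Most G reads were single reads at scattered positions. Of 2386 positions of the 6 genes listed in both libraries, 163 (6.83%) had a G read with ABA and 74 (3.10%) without ABA. Of these, 148 had 1 G read with ABA, 11 had 2 and 4 had 3 or more. Without ABA, 72 had 1 G read, 0 had 2 and 2 had 3 or more. A G read in both libraries was seen at 6 positions, against 157 with ABA alone and 68 without ABA alone. At a mean depth of 20 reads or more, where the other nuclear positions can be set beside them, 5 of 222 positions with a G read (2.25%) had one in both libraries, against 5.83% of the other positions. The share was higher with ABA at 160 positions and lower at 71. At that depth it was higher at 68.9% of the positions of the 6 genes whose shares differed, and at 63.7% of such other positions, so that the split lay near the general one. By gene, TUBB had 41 positions higher and 12 lower, TUBB4B 22 and 5, TUBA1C 26 and 9, TUBA1B 34 and 18, TUBA1A 18 and 10, and VIM 19 and 17.

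**Figure D3:**
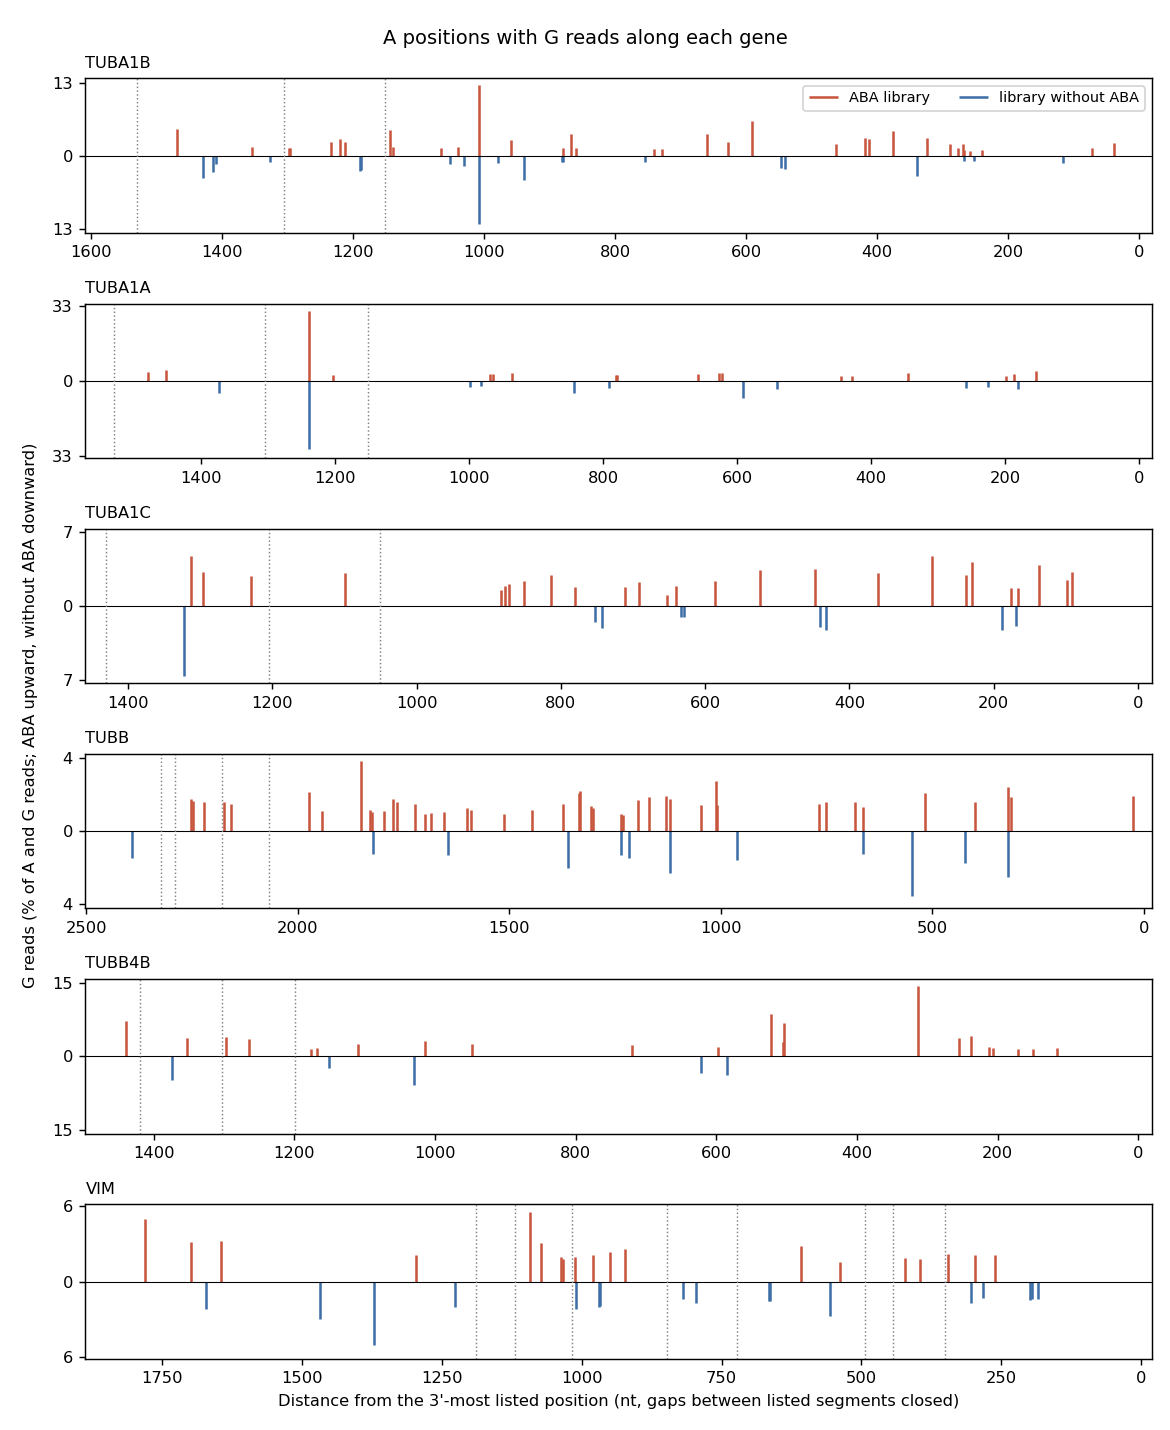
Edited share at each A position with a G read, against the distance from the 3'-most listed position of the gene in nt, with the gaps between listed segments closed (dotted lines). Red bars go up for the ABA library and blue bars down for the library without ABA. Most bars are single reads, so that their height mainly shows depth. The tall paired bars in TUBA1B and TUBA1A recur in both libraries.

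The position with the most G reads was TUBA1B 49522578, which had 7 of 56 reads (12.5%, 5.18% to 24.1%) with ABA and 7 of 57 (12.3%, 5.08% to 23.7%) without ABA. The shares were nearly equal in the libraries (exact p = 1). It was the only position of the 6 genes that counted as an edited site, with at least 20 reads, 3 G reads and a share of 10%. Such sites made up 0.0423% of covered nuclear positions with ABA and 0.0197% without ABA, while the 6 genes had 1 in 2126 covered positions with ABA and 1 in 1985 without ABA. In TUBA1A, position 49580180 had 4 of 13 reads (30.8%, 9.09% to 61.4%) with ABA and 3 of 10 (30%, 6.67% to 65.2%) without ABA. Its depth was below the minimum of 20 reads, and it was chosen after its values were seen. Other positions of the gene had medians of 27 reads with ABA and 22 without ABA.

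The 3 alpha-tubulin genes were compared by their listed A positions, since the sources used here do not say how reads that align to more than 1 gene were treated. The listed segments 2 and 3, counted from the 5' end, were 216 and 145 nt long in all 3 genes. In segment 2, all 46 A positions of TUBA1B were A positions of TUBA1A and of TUBA1C. In segment 4, 228 of 263 A positions of TUBA1B (86.7%) were shared with TUBA1A, and 215 of 237 (90.7%) with TUBA1C over the aligned length of 1047 nt. The last segments of TUBB and TUBB4B shared 212 A positions, 81.2% of those of TUBB and 79.4% of those of TUBB4B over 1195 nt. Reads could therefore be split between these genes, and the gene of a given read is uncertain.

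Of the 6 positions with a G read in both libraries, the 2 with the highest shares were looked up in the paralogues, and neither had a listed A at the aligned place. TUBA1B 49522578 faced no listed A in TUBA1A or TUBA1C, and TUBA1A 49580180 faced none in TUBA1B or TUBA1C. Which base the paralogues hold there was not read, because no hg19 genome was used. What part paralogue reads had in these G reads was not tested. At positions with a listed A in every aligned alpha-tubulin paralogue, TUBA1B had 36 G reads of 15486 with ABA (0.232%) and 19 of 13742 without ABA (0.138%), a ratio of 1.68 (0.939 to 3.10). TUBA1A had 0.177% and 0.131% at such positions, a ratio of 1.35 (0.575 to 3.32). TUBA1C had 0.255% and 0.0835%, a ratio of 3.06 (1.42 to 7.33). The order of the 3 genes by ratio was the same as over all positions, with overlapping intervals. These positions held most of the same G reads, and in TUBA1C all 30 with ABA and all 9 without ABA. The kept order is therefore not a separate check. RefSeq (GRCh38.p14) also names 17 pseudogenes with symbols that start with TUBA, 38 with TUBB and 1 with VIM, whose reads could not be told apart by these files.

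Among the other positions named by their number of G reads, all had 0 G reads without ABA. Naming needed 2 or more G reads in either library. Without ABA, 0 positions had 2 and 2 had 3 or more, the 2 described above. The positions below were therefore named through their G reads with ABA, and their one-sided counts are not a separate result. TUBA1B 49522438 had 3 of 79 reads (3.80%) with ABA and 0 of 81 without ABA, and TUBA1B 49522714 had 3 of 67 (4.48%) and 0 of 46. TUBA1B 49521840 had 2 of 97 reads with ABA and 0 of 102 without ABA. The 4 named positions of TUBA1C, 49666445, 49666638, 49666726 and 49666949, each had 2 G reads with ABA and 0 without ABA, with shares of 1.90% to 3.92% with ABA. TUBB 30692173 had 2 of 72 reads with ABA and 0 of 65 without ABA. VIM 17275609 had 2 of 36 and 0 of 40, and VIM 17277276 had 2 of 71 and 0 of 61. Counts this low do not separate the libraries at any of these positions, where the lowest exact p was 0.118.

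The site test set G against A reads of the libraries by a two-sided Fisher's exact test. It ran over all nuclear positions that had 20 or more reads in each library, with Benjamini-Hochberg adjustment. A call needed an adjusted p under 0.05 and a change of at least 10 percentage points. Of 1932 tested positions in the 6 genes, 0 were called in either direction, against a background of 0 of 359090 (0%). At an unadjusted p under 0.05, 0 of the 1932 were higher and 0 lower, against 0.0175% higher and 0.000557% lower over all tested positions. The largest change in the 6 genes was 5.56 percentage points upward, at VIM 17275609, and 4.76 points downward, in TUBB4B.

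Reads were also pooled over blocks of positions at most 100 nt apart with at least 200 reads in each library. By the same exact test 0 of 23 blocks of the 6 genes were called, against 0.0133% of 45236 nuclear blocks called higher with ABA and 0% called lower. At an unadjusted exact p under 0.05, 4 of the 23 were higher and 0 lower, against 0.639% higher and 0.0243% lower over all blocks. The 4 were the 3'-most blocks of TUBB, TUBA1C, TUBB4B and TUBA1B, among the deepest of the 6 genes. The 6 genes had 5 blocks with at least 5000 reads in each library, and the 4 were among these. Of all 646 nuclear blocks of that depth, 14.7% were higher at that level and 74.1% had a higher rate with ABA before any test. By ratio, the 5 blocks lay above 38.3% (TUBA1A) to 82.6% (TUBB4B) of the 643 such blocks with a ratio. The lowest p was that of TUBB from 30691120 to 30693184, with 40 of 28134 reads with ABA and 11 of 24262 without ABA (exact p = 0.000353, adjusted p = 0.886). These p-values compare the 2 libraries and not the conditions.

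Within the tubulins, the 3'-most segment held most reads and most G reads. For TUBA1C it had 26 of 9837 reads (0.264%) with ABA and 8 of 9122 (0.0877%) without ABA, a ratio of 3.01 (1.33 to 7.70), and the other segments had 4 of 2652 and 1 of 2322. For TUBB4B it had 20 of 9980 with ABA and 4 of 7205 without ABA, a ratio of 3.61 (1.21 to 14.5), beside 4 of 1250 and 1 of 1056 in the other segments. TUBB had 5 of 4023 reads with ABA and 1 of 4323 without ABA outside its last segment. TUBA1B was at 0.282% with ABA and 0.159% without ABA in its last segment, a ratio of 1.78 (1.01 to 3.22), and at 0.163% and 0.164% in the others, a ratio of 0.994 (0.286 to 3.58). These 2 ratios overlapped widely.

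In vimentin the positions with G reads were also compared by the base next to them. Of its 17 positions with a G read without ABA, each with 1 such read, 15 lay next to another listed A, as did 252 of all 483 listed VIM positions. The 17 included 2 directly adjacent pairs, against 0 such pairs with ABA. Neighbouring positions share reads, and whether each pair came from 1 read was not tested. Of the 17, 0 had a G read with ABA. At a mean depth of 20 reads or more, 0 of 16 such VIM positions had one, against 14.6% over the other nuclear positions. TUBA1A (0 of 9), TUBA1C (0 of 9) and TUBB4B (0 of 5) also had none. TUBA1B had 10% of 20, TUBB 25% of 12, and the 6 genes together 7.04% of 71. With ABA, 19 VIM positions had a G read, and 8 of them lay next to a listed A. At VIM positions with a listed A beside them the rate was 0.0884% with ABA and 0.134% without ABA, a ratio of 0.661 (0.255 to 1.61). At VIM positions with none it was 0.135% (12 of 8875 reads) and 0.0203% (2 of 9831 reads), a ratio of 6.65 (1.48 to 61.1). The second ratio rests on the 2 reads without ABA. In the tubulins the ratios were 2.82 (1.69 to 4.92) next to a listed A and 1.95 (1.36 to 2.84) elsewhere. Over the other nuclear positions they were 1.91 and 2.09.

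Depth at the 6 genes was read per A position, since the genes differ in length. TUBB had the highest mean, 55.7 reads per listed position with ABA and 49.0 without ABA, and TUBA1B followed with 51.7 and 45.8. VIM had 40.6 and 43.6, TUBA1C 39.7 and 35.8, TUBB4B 35.4 and 25.8, and TUBA1A 28.1 and 23.7. The order was the same in both libraries. Within a gene the depth of positions ranged widely, from 6 to 116 reads in TUBB and from 6 to 70 in TUBA1A with ABA, so neighbours in this order overlapped.

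Relative depth was taken as reads per 1000000 nuclear reads at positions listed in both libraries. A sequenced read counts at each A position it covers, so base reads are not independent. The intervals below are therefore too narrow. TUBB4B had 280.05 with ABA and 199.97 without ABA, a ratio of 1.4 (1.36 to 1.44), above 99.2% of the 646 deep blocks. TUBA1A had 252 and 207, a ratio of 1.22 (1.18 to 1.25), above 95.05% of them. The ratios of TUBB, TUBA1B and TUBA1C were 1.16, 1.15 and 1.12, and lay above 84.4% to 90.2% of the deep blocks. VIM had 476 with ABA and 509 without ABA, a ratio of 0.936 (0.917 to 0.954) that turned to 1.02 when all listed positions set the scale. The median deep block stood at 0.969, and VIM, on the same scale, at 0.966 times (0.947 to 0.985) that median. In bulk RNA, fewer cells with a transcript and less of it per cell cannot be told apart, and libraries of 1 per condition do not show how far such ratios vary between cultures.

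**Figure D4:**
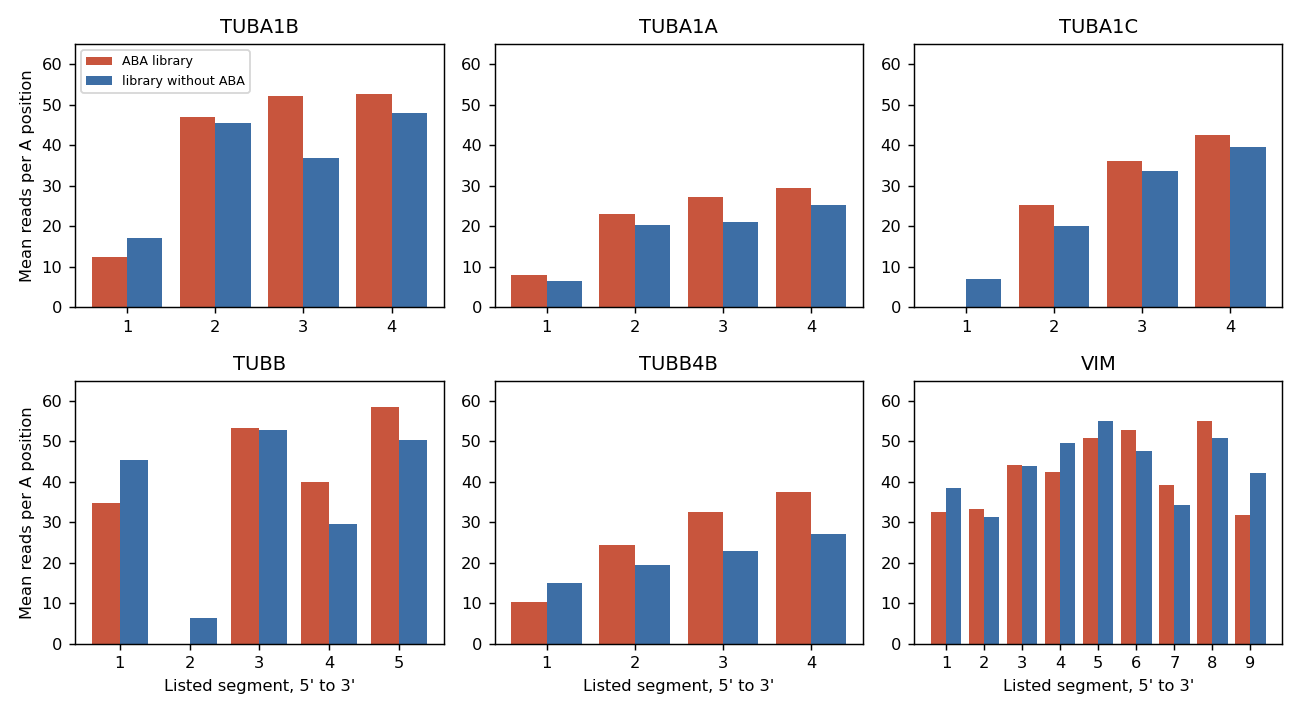
Mean reads per A position listed in either library, in each listed segment, numbered from the 5' end and not scaled to library size. The ABA library (red) stands left of the library without ABA (blue), 1 library each. A missing bar is a segment with no listed position in that library. Tubulin depth is higher with ABA in most segments, except for the first segments of TUBA1B, TUBB, TUBB4B and TUBA1C and the second of TUBB, and vimentin is mixed.

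The gain in tubulin depth was not even along the genes. Segment means were taken over A positions listed in either library, a position unlisted in one of them counting as 0 there. They were not scaled to library size, which was 45277712 base reads with ABA and 51092343 without ABA. The first listed segment of TUBB had a mean of 34.9 reads with ABA and 45.5 without ABA, while its last had 58.4 and 50.4. TUBB4B had 10.4 and 15 in its first segment and 37.4 and 27.0 in its last. TUBA1B had 12.3 and 17.1 in its first segment, of 7 positions, and 52.6 and 48.0 in its last. The first segment was shallower with ABA in 5 of 6 genes, TUBA1A being the exception at 8 and 6.57. In TUBA1C it had only 2 positions, with a mean of 7 reads without ABA and neither listed with ABA. In VIM the first and the last segment were both shallower with ABA, at 32.6 and 38.6 and at 31.9 and 42.2, and 5 of 9 segments were deeper with ABA. What moved with the ends of the transcripts, such as RNA quality, was not tested.

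The strand opposite to the genes was nearly unread. With ABA, 4 of the 6 genes had 0 reads on it at listed positions, VIM had 73 and TUBB 363. Without ABA the opposite strand had 313 reads in VIM, 254 in TUBB, 122 in TUBA1B, 97 in TUBB4B, 66 in TUBA1C and 31 in TUBA1A, so that 5 of 6 genes had more there than with ABA. A positions are listed from 6 reads on, so 0 means fewer reads than that at each position. RefSeq lists the noncoding RNA VIM-AS1 on chromosome 10, as VIM, and the gene CIMIP2A on chromosome 9, as TUBB4B. Their overlap with VIM and TUBB4B was not measured here. The only G read on the opposite strand was 1 in TUBB with ABA.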

How the data were processed

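RNA of HEK-293T cells was made into libraries with the KAPA mRNA HyperPrep kit, per the labels' protocols. The submitters' processing notes name cutadapt, HISAT2 and hg19, with no versions. The authors deposited raw counts of each base read at each transcript A position (T positions on the minus strand, read here as their complement), with a single base read cutoff of 5 per the file headers. The lowest depth found was 6 reads and the median 10 in both libraries. Base reads numbered 45277712 with ABA and 51092343 without ABA. The handling of multiple alignments and duplicates was not given in the sources used here. Molecular identifiers are not mentioned. Neighbouring positions share reads, so their counts are not independent. Intervals take each base read as separate and cover counting error only, and those of relative depth are too narrow.

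Rates are G over A plus G reads, summed over listed positions. Positions with an A-to-G share of 35% or more in either library were left out of all rates. Intervals of rates are Clopper-Pearson, those of ratios exact conditional binomial, and those of ratios of ratios normal approximations. The site and block tests were fitted over all nuclear positions, and their scripts were tested on simulated data. A count of 0 allows up to 3 reads. Depth-matched values used depth classes of 5 reads and take the other positions' rates as fixed. Positions named are, per gene, the 4 with the most G reads among those read 20 or more times in each library and with 2 or more G reads in either. The members, lists and tests were chosen with earlier results of these data known. Alternatives to the minimum depth, the share, the position set, the test and the block gap were run. An hg19 annotation was not used here, so exons and UTRs were not assigned, and the planned lists of other cytoskeletal genes and of cell type markers were not run. The software was scipy 1.17.1, numpy 2.4.6 and pandas 2.3.3 under Python 3.11.15, and matplotlib 3.10.9 for figures.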

Additional observations from a re-analysis of the deposited data

How the results depend on the processing

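With 20 to 50 reads at most positions, single shares have wide limits, and 5 to 46 G reads per gene limit the ratios. The gene ratios stayed within their reported intervals under every alternative but 1: without A positions next to a listed A, the VIM ratio moved to 6.65. The cause was not tested. That set of positions also put the TUBA1A ratio below 1 and the interval of TUBB4B across 1. All 56 alternative values of the ratios against the other positions or between classes stayed within the reported intervals. Of the 12 levels set against other positions of the same depth, 4 no longer stood apart from 1 without the position of most G reads, TUBA1B in both libraries and TUBA1A and TUBB4B with ABA, a comparison chosen after seeing the data. Calls in the 6 genes stayed at 0 in the site test (minimum depth of 10 or 50 reads, a change of 5 points, a chi-square test) and in the block test (gaps of 50 or 200 nt, variant-like positions kept, the top position left out, positions listed in both libraries, the last chosen after seeing the data). In the site test the change of 5 points could add no call, since the lowest unadjusted exact p in the 6 genes was 0.118. The count of edited sites was 0 in both libraries at a share of 20% and 2 in both at a minimum depth of 10 reads, which admits TUBA1A 49580180. With all listed positions as the scale, relative depth was 1.26 for TUBA1B, 1.33 for TUBA1A, 1.23 for TUBA1C, 1.27 for TUBB and 1.54 for TUBB4B, and that of VIM reversed to 1.02. With positions of at least 20 reads in both libraries it was 1.09, 1.13, 1.05, 1.11, 1.33 and 0.907 in the same order. The median deep block, 0.969 as reported, moved to 1.07 and 0.928 with these scales. No paired analysis was possible because each condition had 1 library.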
